A study of Homo sapiens with 3 samples.

Results

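The genes described here are 9 transcription factors of squamous epithelium: SOX2, TP63, KLF4, KLF5, PAX9, GRHL2, ZNF750, FOXE1 and PITX1. They were chosen by name, with the low SOX2 values of these libraries already known, and all 9 were found among the 60554 genes of the deposited table. RNA was sequenced from KYSE30, a human cell line long established from a squamous cell carcinoma of the esophagus. Each of the 3 stable lines gave 1 library. A pair of lines carried different shRNAs against the box C/D small nucleolar RNA SNORD12B, and their libraries are labelled shSNORD12B-1 and shSNORD12B-2. The third was the control, which its genotype label calls a vector and the protocol describes as a scrambled shRNA with no target. All 3 lines had been exposed for 24 hours to viral supernatant made in 293T cells with the pLKO.1-blast vector, and then kept for 2 weeks in blasticidin at 5 ug/mL, in medium with 10% serum. The sources used here do not give whether the lines are pools or single clones.

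Squamous epithelium is built from a dividing basal layer whose daughters stop dividing and differentiate as they move up. SOX2 and TP63 act in the basal layer of the esophagus and often lie in gained DNA in squamous carcinomas. KLF5 acts in proliferating cells, KLF4 and ZNF750 drive late differentiation, and GRHL2 maintains the epithelial state. PAX9, FOXE1 and PITX1 are developmental factors of the pharynx, thyroid and palate, and the face and hindlimb, and PAX9 is also expressed in adult esophageal epithelium.

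Promoters are shown for the members at either end of the range described below, SOX2 and FOXE1, for SOX21, a SOX paralog whose values resembled those of SOX2, and for KLF4, the most abundant member. RefSeq promoter windows on GRCh38.p14 hold 250 bases before and 50 bases from the RefSeq start site on, and 7 of the 9 members had an entry. Capitals mark every match, on either strand, to ACAAT (SOX factors), GGGCGG (the GC box of SP and KLF factors), CACCC (KLF factors), AACCNGTT (GRHL factors), TAATCC (PITX factors), TGTTTA (FOX factors), CCAAT or TATAAA, and no motif overlaps another one here. The windows are chr3:181711675-181711974 on the plus strand for SOX2, chr13:94712496-94712795 on the minus strand for SOX21, chr9:97852976-97853275 on the plus strand for FOXE1 and chr9:107489720-107490019 on the minus strand for KLF4.
SOX2: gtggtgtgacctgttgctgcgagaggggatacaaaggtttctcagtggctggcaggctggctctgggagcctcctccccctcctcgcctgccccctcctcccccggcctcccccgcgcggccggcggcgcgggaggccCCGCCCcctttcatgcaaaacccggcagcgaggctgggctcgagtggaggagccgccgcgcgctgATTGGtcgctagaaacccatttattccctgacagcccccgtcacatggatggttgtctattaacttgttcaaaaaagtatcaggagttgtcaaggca
SOX21: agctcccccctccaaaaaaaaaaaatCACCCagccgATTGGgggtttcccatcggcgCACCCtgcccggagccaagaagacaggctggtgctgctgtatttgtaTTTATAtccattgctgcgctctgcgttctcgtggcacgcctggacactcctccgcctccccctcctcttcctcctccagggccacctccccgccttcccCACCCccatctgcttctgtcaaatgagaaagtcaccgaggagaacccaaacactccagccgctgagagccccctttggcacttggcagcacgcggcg
FOXE1: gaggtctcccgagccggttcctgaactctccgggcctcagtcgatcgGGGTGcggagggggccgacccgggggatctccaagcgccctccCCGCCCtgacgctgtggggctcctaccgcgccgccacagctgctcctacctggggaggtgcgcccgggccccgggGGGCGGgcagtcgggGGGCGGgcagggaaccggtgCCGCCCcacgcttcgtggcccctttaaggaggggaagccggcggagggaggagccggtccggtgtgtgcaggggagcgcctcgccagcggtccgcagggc
KLF4: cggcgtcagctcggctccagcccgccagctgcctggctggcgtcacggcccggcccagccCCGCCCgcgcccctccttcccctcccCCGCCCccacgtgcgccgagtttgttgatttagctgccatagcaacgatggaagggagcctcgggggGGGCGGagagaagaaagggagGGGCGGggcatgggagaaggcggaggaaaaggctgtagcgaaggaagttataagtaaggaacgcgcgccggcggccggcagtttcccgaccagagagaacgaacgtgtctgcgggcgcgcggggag

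The SOX2 window holds 1 GC box and 1 CCAAT match, both on the minus strand of the window. The SOX21 window holds 3 CACCC matches, 1 CCAAT match and 1 TATAAA match. The FOXE1 window holds 4 GC boxes and 1 CACCC match, and the KLF4 window 4 GC boxes. Among 35116 promoter windows of the same length, 45.0% hold GGGCGG, 59.9% CACCC, 34.6% CCAAT, 11.5% TATAAA and 27.4% ACAAT, so such matches are common. AACCNGTT is held by 1.73%, TAATCC by 6.36% and TGTTTA by 12.3%, and none of these 3 motifs, nor ACAAT, is in any of the 4 windows shown. These are letters in a window, with no measurement of binding.

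The libraries held 15146805 to 17336936 counts, and 17801 genes passed the filter on low counts. SNORD12B itself was counted 15 times in the library labelled shSNORD12B-1 and 1 time in that labelled shSNORD12B-2, against 7 times in the control. The ratio to the control was 2.16 (95% exact conditional interval 0.831 to 6.28) for shSNORD12B-1 and 0.126 (0.0028 to 0.982) for shSNORD12B-2. The count in the library labelled shSNORD12B-1 is thus not below the control, as its label would have it, but its interval includes 1. Whether the label holds cannot be told from so few counts, so values are given for each library by itself. The means and tests below that join the pair take in this library, in which lower SNORD12B was not seen. The SD over tested genes of the log2 difference was 0.67 between the shSNORD12B libraries, against 0.626 for shSNORD12B-1 and 0.531 for shSNORD12B-2 relative to the control. No line had a second library, so intervals cover counting error only, and the members, chosen with this contrast in view, are described with no test. Of the 9 squamous epithelium markers other than TP63, KRT5 (3, 2 and 1 counts) and PKP1 (2, 12 and 11 counts in shSNORD12B-1, shSNORD12B-2 and the control) were at or near 0. In TPM (counts per exonic length, scaled to the same total in each library) these 9 markers summed to 193.3 and 251.8 TPM in the shSNORD12B libraries, against 415.6 TPM in the control. KRT6A and KRT17 held the largest parts of the control sum, at 176.7 and 110.5 TPM. In CPM (counts relative to the library total, with TMM scaling), 6 of the 8 that passed the filter lay below the control in both, against 27.0% of all tested genes. Among them were the keratin gene KRT6A at 90.1 and 51.4 against 174.7 CPM, and the desmocollin gene DSC3 at 27.2 and 53.2 against 68.3 CPM. The other markers that passed went otherwise. KRT15 lay above the control in both, at 26.11 and 28.86 against 22.85 CPM. DSG3 lay above it in shSNORD12B-2 only, at 61.15 and 129.2 against 92.44 CPM. The part of these markers in the SOX2 values below was not tested. The 5 general epithelium markers summed to 5814 and 7794 TPM, against 6411 TPM in the control. The keratin gene KRT8 stood at 1945 and 1925 TPM, against 1880 TPM in the control, whereas KRT19 stood at 1730 and 3649 TPM, against 2445 TPM. The 6 fibroblast markers summed to 3.0 and 4.33 TPM, against 4.84 TPM in the control, with COL1A2, DCN and LUM at 0 counts in all 3 libraries. COL1A1, the only fibroblast marker that passed the filter, had 142 and 230 counts, against 245 in the control. The 4 leukocyte markers summed to 0.29 and 0.3 TPM, against 0.203 TPM in the control, with PTPRC at 0 and 1 counts against 0. The 3 endothelial markers summed to 0.462 and 2.85 TPM, against 1.61 TPM in the control.

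SOX2, a high-mobility-group factor of the esophageal basal layer, was far lower in both shSNORD12B libraries, and to a different degree in each. SOX2 (ENSG00000181449.3, chromosome 3, 181711924 to 181714436, plus strand, hg38) had 185 counts in shSNORD12B-1 and 676 in shSNORD12B-2, against 1599 in the control. That is 12.2 CPM in shSNORD12B-1 (95% exact Poisson interval 10.5 to 14) and 38.9 CPM in shSNORD12B-2 (36.0 to 41.9), against 104.1 CPM in the control (99.1 to 109). The intervals of the 3 libraries do not overlap, but they cover counting error only, and SOX2 was chosen with its low values known. The ratio to the control was 0.117 (exact interval 0.0998 to 0.136) for shSNORD12B-1 and 0.373 (0.341 to 0.409) for shSNORD12B-2. Between the pair of shSNORD12B libraries, shSNORD12B-1 held 0.313 of the level of shSNORD12B-2 (0.265 to 0.369). Over that pair SOX2 averaged 25.5 ± 18.9 CPM (SD, n = 2), so the lines differed about as much as their mean. On the log2 scale the ratios were -3.08 and -1.42. No exon of another gene in the table overlaps those of SOX2 on either strand. SOX2 is counted in bulk RNA, where fewer cells with SOX2 and less SOX2 RNA per cell cannot be told apart.

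TP63, the master regulator of stratified epithelium, was lower mainly in the library labelled shSNORD12B-1. TP63 (ENSG00000073282.12, chromosome 3, 189631416 to 189897279, plus strand) lies 7.92 Mb beyond SOX2 on the same chromosome. It stood at 80.6 CPM in shSNORD12B-1 (76.1 to 85.2) and 135 CPM in shSNORD12B-2 (130 to 141), against 156.6 CPM in the control (150 to 163). The ratio to the control was 0.515 (0.48 to 0.551) for shSNORD12B-1 and 0.862 (0.814 to 0.913) for shSNORD12B-2. Both libraries lay below the control, by log2 ratios of -0.96 and -0.21. The count is of the whole gene, so transcripts from its upstream start and from the internal start that gives the DeltaN form are not separated.

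**Figure D1:**
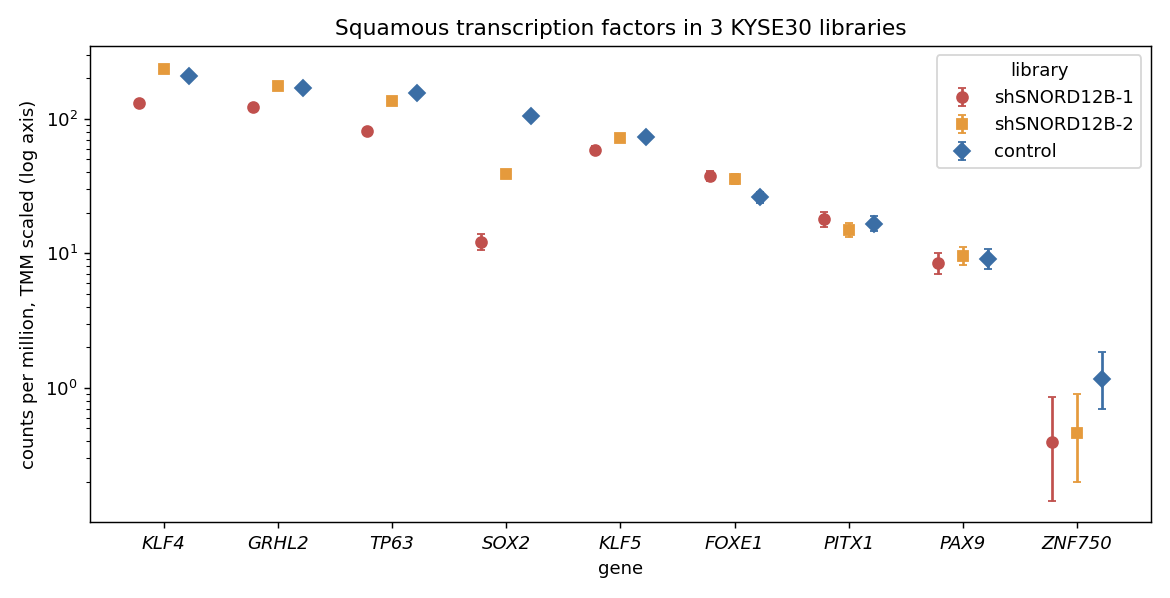
Levels in CPM, on a log axis, of the 9 factors in shSNORD12B-1 (circles), shSNORD12B-2 (squares) and the control (diamonds), with 95% exact Poisson intervals that cover counting error only. SOX2 spans 12.2, 38.9 and 104.1 CPM in that order, while PAX9 and PITX1 have overlapping intervals in all 3 libraries.

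KLF4 lay on different sides of the control in the shSNORD12B libraries, and KLF5 stood close to the control in shSNORD12B-2. KLF4, a zinc finger factor of differentiating suprabasal cells (ENSG00000136826.14, chromosome 9, 107484852 to 107490482, minus strand), stood at 130 CPM in shSNORD12B-1 and 233 CPM in shSNORD12B-2, against 206.2 CPM in the control. It was thus below the control in the first, with a ratio of 0.63 (0.596 to 0.667), and above it in the second, with a ratio of 1.13 (1.08 to 1.18). KLF5, its relative in proliferating epithelium (ENSG00000102554.13, chromosome 13, 73054976 to 73077542, plus strand), stood at 58.6 CPM in shSNORD12B-1 and 71.5 CPM in shSNORD12B-2, against 73.2 CPM in the control. KLF5 was lower in shSNORD12B-1, with a ratio of 0.801 (0.733 to 0.875), and in shSNORD12B-2 its ratio of 0.977 had an interval that includes 1 (0.901 to 1.06). Per length, KLF4 exceeded KLF5 by 2.36 and 3.47 times in TPM in shSNORD12B-1 and shSNORD12B-2, against 3.0 times in the control.

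ZNF750, a zinc finger factor that promotes terminal differentiation downstream of TP63, was barely detected. ZNF750 (ENSG00000141579.6, chromosome 17, 82829435 to 82840578, minus strand) had 6 counts in shSNORD12B-1 and 8 in shSNORD12B-2, against 18 in the control. The ratios to the control were 0.337 (0.109 to 0.885) and 0.393 (0.148 to 0.949). It passed the filter through the control, where it is highest, so it had to be lower elsewhere and nothing is read from that direction. In the control, 8.16% of tested genes had a lower TPM than ZNF750.

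GRHL2, a grainyhead-like factor that maintains epithelial junction genes, resembled KLF4 in its order of libraries. GRHL2 (ENSG00000083307.10, chromosome 8, 101492432 to 101669726, plus strand) stood at 122.6 CPM in shSNORD12B-1 and 176.6 CPM in shSNORD12B-2, against 170 CPM in the control. The ratio was 0.721 (0.679 to 0.765) for shSNORD12B-1, and 1.04 (0.986 to 1.09) for shSNORD12B-2, an interval that includes 1.

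The last 3 members are developmental factors, of which FOXE1 was the only member of the 9 to lie above the control in both shSNORD12B libraries. FOXE1, a forkhead factor (ENSG00000178919.8, chromosome 9, 97853254 to 97856715, plus strand), stood at 37.6 CPM in shSNORD12B-1 and 35.8 CPM in shSNORD12B-2, against 26 CPM in the control. Its ratios to the control were 1.45 (1.27 to 1.65) and 1.38 (1.21 to 1.57), and its shSNORD12B mean was 36.7 ± 1.26 CPM (SD, n = 2). The shSNORD12B libraries agree within counting error here, with a ratio between them of 1.05 (0.936 to 1.18).

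PAX9, a paired-box factor (ENSG00000198807.12, chromosome 14, 36657568 to 36679715, plus strand), stood at 8.42 and 9.6 CPM in shSNORD12B-1 and shSNORD12B-2, against 9.11 CPM in the control. PITX1, a bicoid-type homeodomain factor (ENSG00000069011.15, chromosome 5, 135027735 to 135034813, minus strand), stood at 17.8 and 15 CPM, against 16.6 CPM in the control. For both genes each ratio to the control had an interval that includes 1, from 0.721 to 1.33 for PAX9 and from 0.758 to 1.28 for PITX1 over the pair of libraries. Exons on the opposite strand cover 29.74% of the exonic bases of PAX9, with SLC25A21 as partner at 74 and 64 counts in the shSNORD12B libraries and 55 in the control. They cover 8.345% of those of PITX1 and 0.8251% of those of GRHL2, and none of those of the other 6 members. Reads of such overlaps are uncertain, since no source used here names the library kit.

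Over the whole group, 2 of the 9 members, SOX2 and ZNF750, were at least 2-fold lower in both shSNORD12B libraries, and 0 were at least 2-fold higher in both. Among all 17801 tested genes these shares were 1.19% and 0.977%, and since the choice of members used this contrast nothing is read from the difference. Taken by library, the same 2 members were at least 2-fold lower in shSNORD12B-1, against 5.58% of tested genes, and in shSNORD12B-2, against 3.46%. TP63 came next at -0.96 in shSNORD12B-1. No member was at least 2-fold higher in shSNORD12B-1, against 3.74% of tested genes, or in shSNORD12B-2, against 2.98%. Below the control by any amount in both libraries were 4 members (SOX2, TP63, KLF5 and ZNF750), against 27.0% of tested genes, and 1 was above it in both (FOXE1), against 28.2%. KLF4, PAX9 and GRHL2 lay below the control in shSNORD12B-1 and above it in shSNORD12B-2, a pattern that 21.5% of tested genes had, and PITX1 had the opposite one, as did 23.3%. The median log2 ratio of the members was -0.47 for shSNORD12B-1 and -0.03 for shSNORD12B-2, where all tested genes had medians of 0.01 and 0.00. Both ratios of a gene share the single control.

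**Figure D2:**
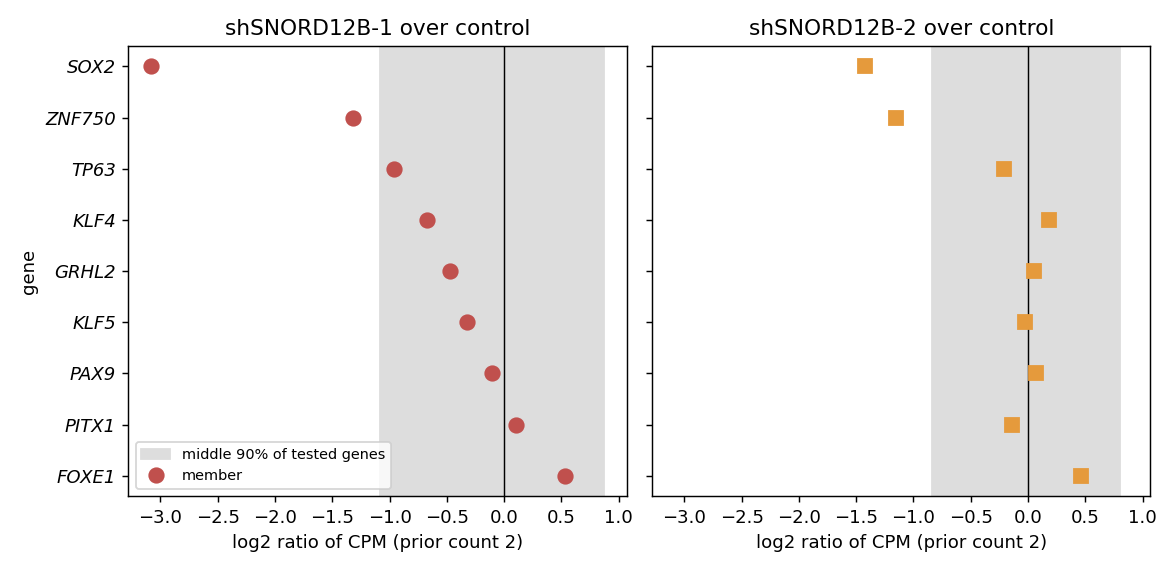
Log2 ratio of each factor in shSNORD12B-1 (left) and shSNORD12B-2 (right) to the control, beside the middle 90% of all tested genes (grey). SOX2 and ZNF750 lie to the left of the grey band in both panels, and FOXE1 lies right of 0 in both at 0.53 and 0.46.

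The order of the members by TPM, which is per length, moved with the place of SOX2. SOX2 ranked 7 of 9 in shSNORD12B-1 at 14.95 TPM (12.9 to 17.3) and 5 of 9 in shSNORD12B-2 at 47.2 TPM, against 2 of 9 in the control at 122.7 TPM. KLF4 ranked 1 in all 3 libraries, at 109.7 and 194.3 TPM in shSNORD12B-1 and shSNORD12B-2, against 167 TPM in the control. GRHL2 came next at 62.5 and 88.9 TPM in these libraries, whereas in the control, at 83.1 TPM, it came after SOX2, and PAX9 and ZNF750 closed the order in each library. In shSNORD12B-1 the neighbours FOXE1 (33.5 TPM) and TP63 (33.4 TPM), and PITX1 (15.7 TPM) and SOX2, had overlapping counting intervals. In shSNORD12B-2 KLF5 (56.1 TPM) and TP63 (55.3 TPM) did, and in the control no neighbours did. The spread between cultures is unknown, so these intervals are the least error that applies. The 9 members summed to 320.8 TPM in shSNORD12B-1 and 491.5 TPM in shSNORD12B-2, against 532.5 TPM in the control, and SOX2 made up 4.66% and 9.6% of that sum, against 23.1% in the control.

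Among the SOX paralogs, SOX21 had the values most like those of SOX2. Of 18 paralogs, 10 passed the filter, of which 4 lay below the control in both shSNORD12B libraries and 1, SOX9, above it in both, with medians of the log2 ratio at -0.6 and 0.09. SOX18, among these 4, had 3 and 6 counts against 12 in the control. It passed the filter only through the control, so its direction is not read. Of all tested genes, 27.0% lay below the control in both libraries and 28.2% above it. SOX21, a factor of the SOXB group to which SOX2 also belongs, had 43 counts in shSNORD12B-1 and 94 in shSNORD12B-2, against 193 in the control, with log2 ratios of -2.1 and -1.2. It lies on chromosome 13, whereas SOX2 lies on chromosome 3. SOX4, of the SOXC group, stood at 22.6 and 19.95 CPM in shSNORD12B-1 and shSNORD12B-2, against 40.1 CPM in the control. SOX9, a progenitor factor of many epithelia, stood at 111.7 and 109 CPM, against 78.6 CPM in the control. SOX15 was the most abundant SOX gene, at 180.8 and 227.5 TPM, against 179.7 TPM in the control. The TPM ratio of SOX15 to SOX2 was 12.1 and 4.82 in shSNORD12B-1 and shSNORD12B-2, against 1.46 in the control, and that of SOX9 to SOX2 was 5.86 and 1.79, against 0.482. These ratios carry the SOX2 values in their denominator, and the 18 paralogs themselves summed to 348.3 and 425.4 TPM, against 366.7 TPM in the control. SOX13 stood at 82.1 and 112.7 CPM, against 136.4 CPM in the control. SOX12 stood at 26.8 and 51.7 CPM, against 37.2 CPM, and SOX7 at 13 and 17.4 CPM, against 15.9 CPM. Same-strand exons of an entry named PINX1, at 0 counts in each library, cover 39.43% of the exonic bases of SOX7. SOX1, SOX3, SOX5, SOX8, SOX11, SOX14 and SOX17 had 0 counts in all 3 libraries, which allows up to 0.197 CPM in shSNORD12B-1 and 0.172 CPM in shSNORD12B-2, against 0.195 CPM in the control.

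**Figure D3:**
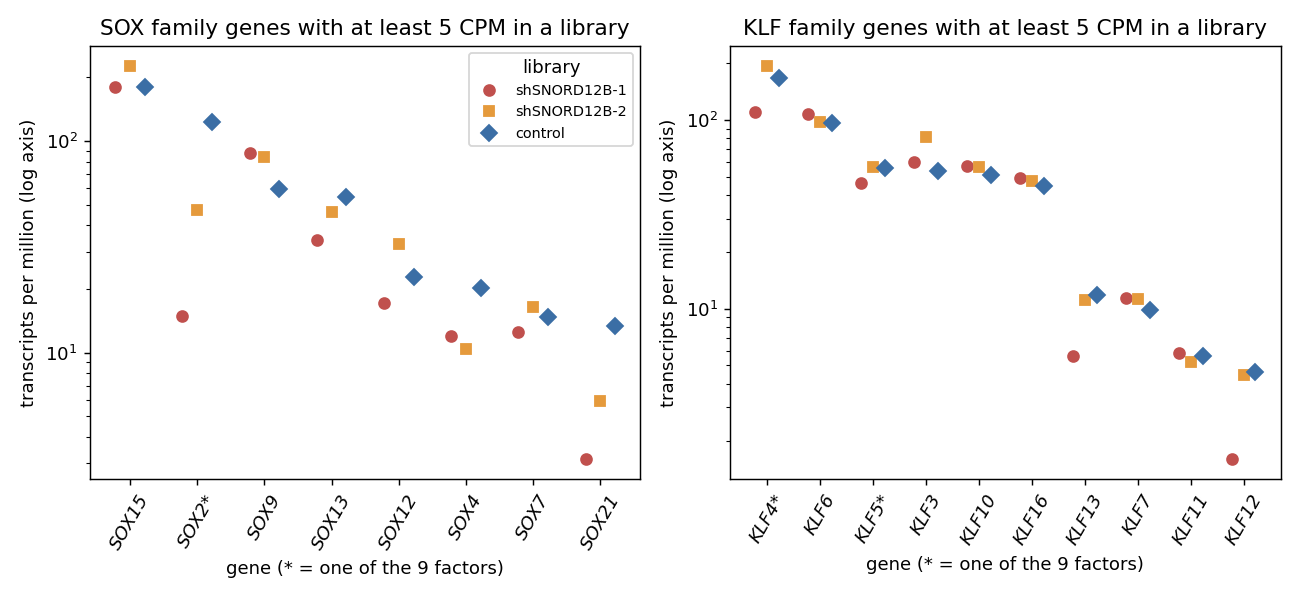
Levels in TPM, on a log axis, of SOX genes (left) and KLF genes (right) with at least 5 CPM in a library, in shSNORD12B-1 (circles), shSNORD12B-2 (squares) and the control (diamonds). SOX2 and SOX21 are lower in both shSNORD12B libraries than in the control, while SOX15, at 180.8 and 227.5 TPM against 179.7 TPM, is not.

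Among genes that passed the filter, the other families held none at least 2-fold lower in both shSNORD12B libraries. Of 16 KLF paralogs, 11 passed the filter, of which both libraries placed 3 below the control and 6 above it, with medians of the log2 ratio at 0.09 and 0.1. KLF14, among these 6, had 31 and 18 counts against 7 in the control. It passed the filter only through the shSNORD12B libraries, so its direction is not read. The shares of all tested genes were 27.0% below the control in both libraries and 28.2% above it. KLF6, an early response factor of many tissues, stood at 107.8 and 97.7 TPM in shSNORD12B-1 and shSNORD12B-2, against 96.7 TPM in the control, so that its TPM ratio to KLF4 was 0.982 and 0.503, against 0.579. KLF12 and KLF13 were at least 2-fold lower in shSNORD12B-1 and near the control in shSNORD12B-2: KLF12 stood at 5.72 and 16.3 CPM, against 17.4 CPM in the control, and KLF13 at 17.1 and 34.4 CPM, against 37.4 CPM. KLF3 stood at 122.1 and 166.8 CPM, against 113.9 CPM in the control, and KLF7, KLF10, KLF11 and KLF16 had log2 ratios between -0.15 and 0.15 in both. TP73, a relative of TP63, stood at 9.14 and 7.7 CPM, against 12.8 CPM in the control, with 8.887% of its exonic bases overlapped by TP73-AS1 on the opposite strand. GRHL1, which regulates desmosomal cadherins, stood at 13.8 and 21 CPM, against 26.9 CPM in the control. PAX7, known as a muscle stem cell factor, was more abundant per length than PAX9, at 7.88 and 11.8 TPM, against 7.85 TPM in the control. FOXE3 had 0 and 1 counts against 0 in the control, and no PITX paralog reached 5 CPM.

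The expressed genes around SOX2 on chromosome 3 were not as low as SOX2. SOX2 lies within SOX2-OT, a long noncoding transcript on the same strand, which had 0 counts in shSNORD12B-1 and 6 in shSNORD12B-2, against 11 in the control. Of the 16 genes with at least 5 CPM in a library within 2 Mb of SOX2, both shSNORD12B libraries placed 3 below the control and 9 above it. The median log2 ratio of the 16 was 0.12 and 0.18. The nearest were FXR1, which encodes an RNA-binding protein, with log2 ratios of 0.23 and 0.21, and DNAJC19, which encodes a mitochondrial protein, with -0.04 and -0.52. KLHL24 had -1.13 in shSNORD12B-1 and 0.52 in shSNORD12B-2, and LAMP3 had 0.09 and 1.69. None of the 16 was lower than SOX2 relative to the control in either library. SOX2 was chosen with its low values known, and only 0.242% and 1.33% of all tested genes had a lower ratio. That outcome was thus nearly fixed beforehand, and nothing about the locus is read from it.

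**Figure D4:**
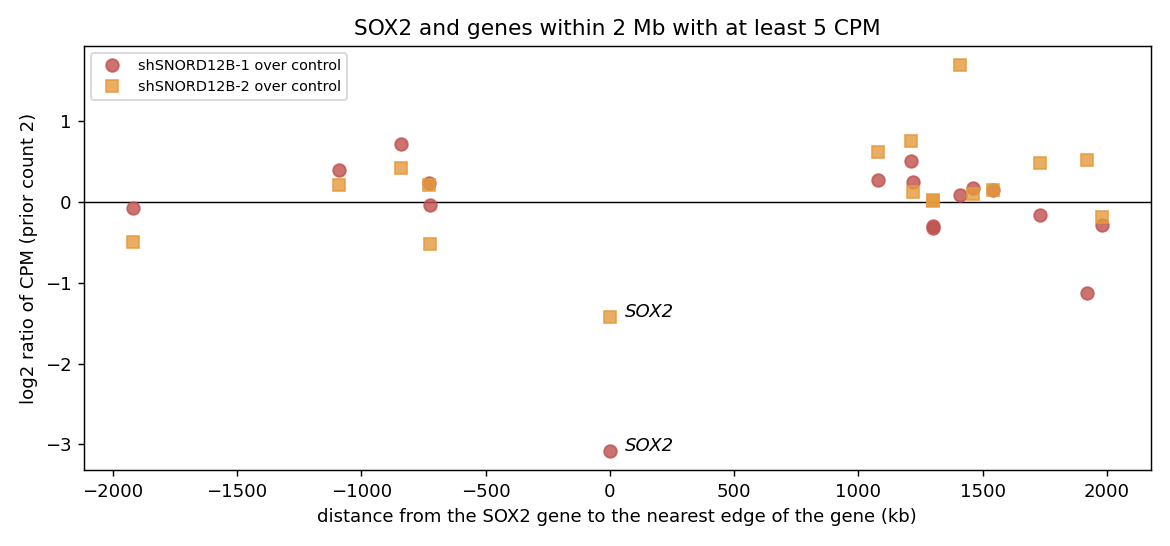
Log2 ratio to the control of SOX2 and the 16 genes within 2 Mb with at least 5 CPM, against the distance in kilobases from SOX2 to the nearest edge of each gene, in shSNORD12B-1 (circles) and shSNORD12B-2 (squares). SOX2, chosen with its low values known, lies at -3.08 and -1.42, below all 16 neighbours in the same library.

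Among the 8533 genes that reached 20 CPM in a library and have an official symbol, 6 had the pair of log2 ratios nearest to that of SOX2. They were KCNJ2, an inward rectifier potassium channel (distance 0.384 log2 units), TNFSF18, a TNF-family ligand (0.611), TRIB2, a pseudokinase (0.614), SLC1A3, a glutamate transporter (0.715), CNTN1, a neural adhesion protein (0.736), and KRT17, a basal keratin (0.755). TNFSF18 stood at 14.2 and 24.9 CPM in shSNORD12B-1 and shSNORD12B-2, against 92.2 CPM in the control. KCNJ2 stood at 2.17 and 5.81 CPM, against 20.4 CPM in the control, and was the only gene of the 8533 within 0.5 of SOX2. TRIB2 stood at 4.27 and 7.59 CPM, against 26.2 CPM in the control, SLC1A3 at 8.02 and 19.8 CPM, against 43.7 CPM, and CNTN1 at 4.6 and 13 CPM, against 53.3 CPM. KCNJ2, TRIB2, SLC1A3 and CNTN1 reached 20 CPM only in the control, so they had to lie below it and their direction is not read. The likeness rests on 3 libraries and on ratios that share the control. Of the 8533 genes, 5 had a ratio at or below that of SOX2 in shSNORD12B-1 and 22 in shSNORD12B-2.

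Genes that act with or downstream of the members were tested with edgeR's quasi-likelihood test over all 17801 genes, which called 0 higher and 0 lower (0.0% each). Before adjustment its p lay under 0.05 for 73 genes above and 164 below the control. By other tools, 1 gene was called higher and 14 lower (DESeq2), 0 higher and 1 lower (limma-voom), or 2 higher and 36 lower (likelihood ratio test in edgeR). That fit takes its spread from the pair of shSNORD12B lines alone and has 1 residual degree of freedom, so its p-values measure the spread between these lines and not between cultures. Of 108 tested genes on the lists below and in the families above, it also called none in either direction after adjustment (0 higher, 0 lower). Before adjustment, 6 of the 108 had a p under 0.05, 1 gene above the control, ZEB1, and 5 below it, SOX4, SOX21, DLX5, KRT17 and NGFR. DESeq2, limma-voom and edgeR's likelihood ratio test also called 0 of the 108 in either direction. With the filter taken away, the quasi-likelihood test called KRT17 lower. These lists, like the members, were chosen with earlier results of these data known. Nothing is therefore read from these p-values, or from a list count that differs from the share of all tested genes. All comparisons below are thus descriptions. To be set beside the list counts below, 27.0% of all tested genes lay below the control in both libraries and 28.2% above it. A further 21.5% lay below it in shSNORD12B-1 and above it in shSNORD12B-2.

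Of 19 basal genes downstream of TP63 and SOX2, 15 lay below the control in shSNORD12B-1 and 11 in shSNORD12B-2. All tested genes had median log2 ratios of 0.01 and 0.00, so about as many of them lay below the control as above it in each library. The count of 11 is near such a split. Both libraries were below the control for 10 basal genes, against 27.0% of all tested genes. They were above it for 3, against 28.2%. The median log2 ratio of the basal genes was -0.6 and -0.1. KRT17 stood at 15.4 and 53 CPM in shSNORD12B-1 and shSNORD12B-2, against 94.6 CPM in the control, though reads of near-identical keratin copies may be shared. NGFR, a neurotrophin receptor of basal cells, stood at 4.67 and 13.3 CPM, against 26.2 CPM, with opposite-strand exons over 27.13% of its exonic sequence. KRT14 stood at 11.5 and 10.8 CPM, against 19 CPM in the control. The laminin chain gene LAMA3 went the other way, at 588.4 and 612.6 CPM, against 428.5 CPM in the control. KRT5, the usual keratin partner of KRT14, did not pass the filter.

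Differentiation genes downstream of KLF4 and ZNF750 were not detected in part and were mixed otherwise. Of 26 genes, 8 did not pass the filter, and CRNN, TGM3 and LORICRIN had 0 counts in all 3 libraries. Both shSNORD12B libraries were below the control for 3 of the 18 tested and above it for 6, and the median log2 ratio was -0.18 and 0.28. Among those below, FLG had 3 and 10 counts against 21 in the control, and CSTA 1 and 6 against 13. FLG and CSTA passed the filter only through the control. Among those above, SBSN, at 16 and 16 counts against 4, passed it only through the shSNORD12B libraries. Nothing is read from the direction of FLG, CSTA and SBSN. IVL, which encodes the envelope precursor involucrin, stood at 18 and 29.7 CPM in shSNORD12B-1 and shSNORD12B-2, against 16.3 CPM in the control. SPRR1B, another envelope precursor gene, stood at 48.5 and 34.3 CPM, against 24.7 CPM, and SCEL, which encodes sciellin, at 78.8 and 92.3 CPM, against 66.5 CPM. TGM1, which encodes the crosslinking enzyme transglutaminase 1, stood at 3.42 and 7.36 CPM, against 9.5 CPM in the control.

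Of 14 epithelial genes downstream of GRHL2, all tested, 8 lay below the control in shSNORD12B-1 and above it in shSNORD12B-2. Of all tested genes, 21.5% had that pattern. GRHL2 itself had it too, though the interval of its ratio in shSNORD12B-2 includes 1 (0.986 to 1.09). The median log2 ratio of the list was -0.22 and 0.2. OVOL1 and ESRP1, named after their values were seen, were each far from the control in 1 library only. OVOL1 stood at 26.5 and 50.02 CPM, against 49.5 CPM, with log2 ratios of -0.9 and 0.02. ESRP1 stood at 266.9 and 436.4 CPM, against 296.5 CPM, with -0.15 and 0.56. Opposite-strand exons of ENSG00000255404 cover 27.12% of the exonic bases of OVOL1. That gene had 174 and 341 counts, against 331 in the control. Those on 1 side in both libraries included ST14, a membrane serine protease gene, at 158.3 and 159.1 CPM, against 178.4 CPM in the control, and ESRP2, a splicing regulator of epithelia, at 95.5 and 88 CPM, against 74.9 CPM. MAL2 stood at 766.6 and 871.6 CPM, against 675.7 CPM in the control, and OVOL2, a repressor of mesenchymal genes, at 9.73 and 10.8 CPM, against 9.24 CPM.

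The mesenchymal factors that oppose GRHL2 and the OVOL genes had medians above the control. Both shSNORD12B libraries were above it for 3 of 5 tested genes and below it for 0, and the median log2 ratio was 0.67 and 0.47. TWIST1 stood at 18.8 and 20.6 CPM in shSNORD12B-1 and shSNORD12B-2, against 11.8 CPM in the control, and SNAI2 at 47.5 and 51.9 CPM, against 37.6 CPM. ZEB1, named after its values were seen, had 54 and 52 counts, against 18 in the control, and ZEB2 had 0 and 1 counts against 0.

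Other squamous transcription factors were mixed, as the members were. Both libraries were below the control for 7 of 18 tested genes and above it for 3, while 7 lay below it in shSNORD12B-1 and above it in shSNORD12B-2. The median log2 ratio was -0.42 and 0.07. RUNX1 stood at 33.5 and 29.6 CPM in shSNORD12B-1 and shSNORD12B-2, against 20.2 CPM in the control. BARX2 stood at 17.9 and 12.7 CPM, against 21.4 CPM in the control, NOTCH1, the receptor that drives squamous differentiation, at 56.9 and 68.6 CPM, against 88.9 CPM, and GATA3 at 40.4 and 47.8 CPM, against 54.8 CPM. DLX5, a distal-less homeobox factor named after its values were seen, had 6 and 20 counts, against 62 in the control, and was the only gene of the list at least 2-fold lower in both. HOPX had 0 counts in all 3 libraries.

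Factors of columnar foregut and intestine were detected in part. Of 14 genes, 7 did not pass the filter, and FOXA3, PDX1 and SOX17 had 0 counts in all 3 libraries. GATA6 stood at 29.2 and 34.6 CPM in shSNORD12B-1 and shSNORD12B-2, against 19.7 CPM in the control, FOXA2 at 13.4 and 12.2 CPM, against 9.24 CPM, and GATA4 at 6.25 and 5.4 CPM, against 8.46 CPM. Both libraries were above the control for 3 of the 7 tested genes and below it for 3, and the median log2 ratio was 0.22 and -0.31. Both medians are the values of CDX2, at 21 and 16 counts against 18, so they rest on a gene near the floor. NKX2-1, among those below the control, had 3 and 5 counts against 11. It passed the filter only through the control, so its direction is not read. The part of these other programmes in the SOX2 values was not tested.

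**Figure D5:**
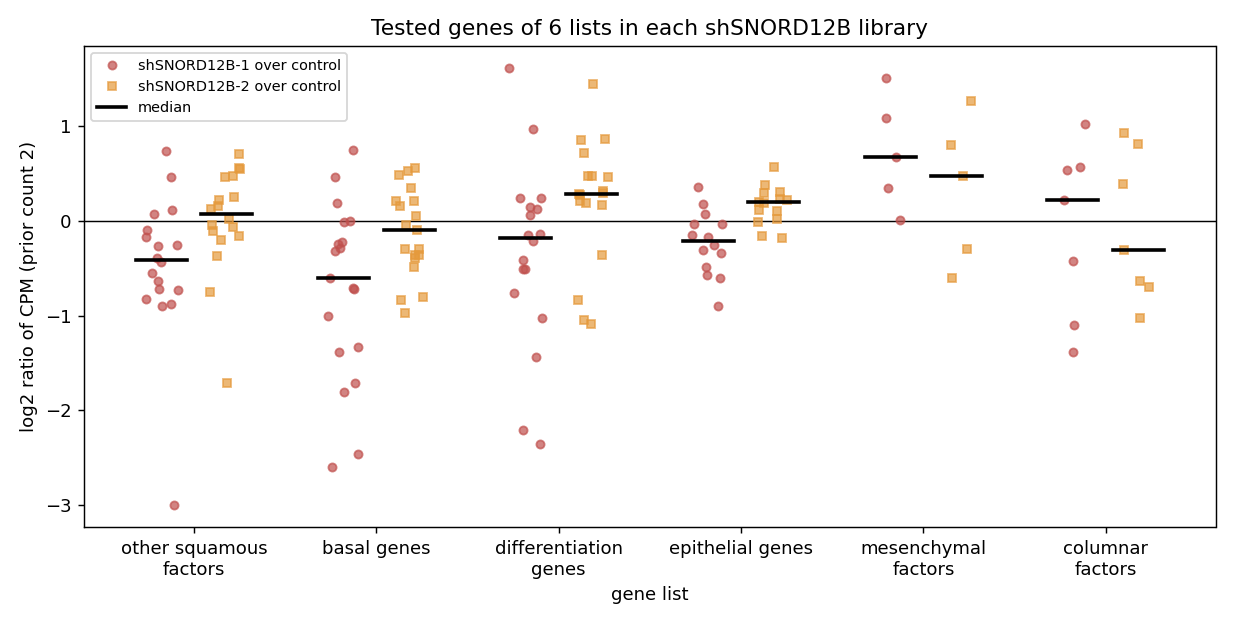
Log2 ratio to the control of each tested gene of 6 lists in shSNORD12B-1 (circles) and shSNORD12B-2 (squares), with black bars for the median. The basal genes have medians of -0.6 and -0.1 and the mesenchymal factors 0.67 and 0.47, and every list spreads over both sides of the control in at least 1 library.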

How the data were processed

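RNA of the 3 KYSE30 lines was measured by RNA sequencing, with 1 library per line. The deposited values are raw counts for each gene, made by the authors with featureCounts 1.6.4 on an hg38 annotation with strand option 1 and no paired-end option, per the file headers. The submitters' processing notes instead name TopHat2, HTSeq and the build hg19. All 52179 identifiers shared with GENCODE 29 in the same version had the same coordinates there, so hg38 positions are given. The deposited exonic length per gene served for TPM. Of 60554 genes, 56558 matched a symbol table.

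The tools were edgeR 4.0.16 in R 4.3.3 (filterByExpr, TMM, two-sided quasi-likelihood F test, Benjamini-Hochberg adjustment at 0.05), limma 3.58.1 and DESeq2 1.42.0. Log2 ratios are differences of log-CPM at prior count 2. Intervals are exact Poisson or exact conditional at 95% and cover counting error only, and 0 counts are given a limit of 3 counts. Checked on 5 simulated draws of this comparison with about 17330 genes, the test recovered 83% of 100 genes changed 4-fold and 100% of 100 changed 16-fold, all with at least 5 CPM, with 8.4 false calls per draw. Both lines were given the same fold, and counts were drawn at the general trend of spread with level, with no spread particular to a gene. The real lines differ in both respects, so these shares are not the recovery in the real data.

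The members and lists were chosen with earlier results of these data known. Named genes are all members, paralogs with at least 5 CPM in any library, up to 4 genes per list with the largest smaller log2 ratio on 1 side of the control, the 6 genes nearest SOX2, and genes within 2 Mb of it. Some others are named to show what a count, sum or median rests on. 1 gene that this rule names is not reported here. Alternatives covered the test, the scaling, the filter, the prior count and leaving out each shSNORD12B line.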

Additional observations from a re-analysis of the deposited data

How the results depend on the processing

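The log2 ratios of the 9 members to the control, in each shSNORD12B library, moved by less than their counting intervals under another scaling (relative log expression factors, or totals only) and under prior counts of 0.5 and 5. Leaving out either library leaves the ratio of the other, as the report gives them. The largest shift was 0.25, for ZNF750 in shSNORD12B-1 with a prior count of 5, and that setting left 1 member, SOX2, at least 2-fold lower in both libraries. Over all genes, the counts of higher and lower calls were 1 and 14 by DESeq2, 2 and 36 by edgeR's likelihood ratio test and 4 and 37 by the quasi-likelihood test with no filter. Limma-voom, and the quasi-likelihood test on totals only, each called 1 gene lower and 0 higher. With no filter, 1005 genes were at least 2-fold lower and 469 at least 2-fold higher in both libraries, and with a prior count of 5, 89 were at least 2-fold higher. Over the remaining library when either was left out, 616 to 994 genes were at least 2-fold lower and 531 to 665 at least 2-fold higher. The cause of these shifts was not tested, apart from the number of genes and libraries that each setting admits. The tests gave no value with 1 shSNORD12B library, since no residual degree of freedom is left. No paired analysis was possible because the control carries no replicate number in its label. With 6 to 18 counts, depth limits what can be said of ZNF750.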
